A study of Mus musculus with 4 samples.

Results

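Dendritic cells take up antigen, carry it to lymph nodes and present it to T cells, and in the lung they lie in and below the airway epithelium. Conventional dendritic cells of type 1 (cDC1) present antigen of dead cells to cytotoxic T cells, those of type 2 (cDC2) prime helper T cell responses, and plasmacytoid dendritic cells (pDC) release type I interferon. The 10 genes described here are Xcr1, Clec9a and Itgae, which encode surface proteins of cDC1, Irf8, Batf3, Irf4 and Zbtb46, which encode transcription factors of dendritic cell subsets, Flt3, which encodes the receptor for their growth factor, Cd209a, a surface gene of cDC2 and of monocyte-derived cells, and Siglech, a surface gene of pDC. They were chosen by name, and all 10 were found among the 43346 genes of the table.

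The libraries hold polyadenylated RNA labelled as lung epithelial cells. Libraries B and E came from IL-33 transgenic mice (genotype IL-33 over-expression) and libraries D and F from control mice, 2 libraries a group. The promoter of the transgene, the strain, the age, the genotype of the controls beyond that word and the number of mice per library were not given in the sources used here. The title of each sample names a mouse, without saying whether the RNA came from a single animal or a pool. The p-values therefore cover only the spread among these libraries, which may be technical in part. IL-33 is an alarm cytokine of barrier epithelia that acts on innate lymphoid cells, mast cells and T cells. Il33 itself stood at 1723 and 874 counts per 1000000 (CPM) in the transgenic libraries B and E, against 117 and 108 CPM in the control libraries D and F. The design asks how gene expression differs between the genotypes.

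Gene counts summed to between 76120696 and 87723745 per library. The epithelial label was checked against marker genes: Sftpc, the surfactant protein C gene, stood at 36313 and 21828 CPM in transgenic libraries, against 30079 and 20030 CPM in controls, and Epcam at 164 and 115 against 147 and 110 CPM. Markers of other cells were present beside them. Pecam1, an endothelial adhesion gene, stood at 824 and 1247 CPM in transgenic libraries, against 1001 and 1326 CPM in controls. Ptprc, which encodes the leukocyte surface phosphatase CD45, stood at 20.6 and 30.0 CPM in transgenic libraries, against 8.21 and 16.5 CPM in controls. The summed level of 4 Y-linked genes was 1.43 and 23.2 CPM in transgenic libraries, against 258 and 123 CPM in controls, and since the labels give no sex, a part of sex in any difference between the groups cannot be told apart from genotype.

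Most of the dendritic cell genes were scarce, and a pair of them was not. By the authors' deposited RPKM (reads per kilobase of gene and per 1000000 reads), averaged over the 4 libraries, Clec9a was at 10.9, Zbtb46 at 4.46 and Irf8 at 0.640. Batf3 was at 0.217, Irf4 at 0.196 and Itgae at 0.185, neighbours in the order whose places changed from library to library. Xcr1 at 0.0486, Cd209a at 0.0482, Flt3 at 0.0407 and Siglech at 0.0205 made up the low end. Clec9a, Zbtb46 and Irf8 held ranks 1, 2 and 3 in each of the libraries. Clec9a and Xcr1 are both known as markers of cDC1, yet the mean RPKM of Clec9a was 223 times that of Xcr1.

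The sequences upstream of Irf4 and Irf8 are shown because these were the transcription factor genes that stood higher without overlap of the groups. That of Cd209a is shown because it alone held a match to the Ets-IRF composite element described next. Composite sites of other kinds were not searched for. IRF4 and IRF8 proteins bind DNA at interferon response elements (GAAA, 2 bases of any kind, GAAA) and, with the factor PU.1, at Ets-IRF composite elements (GGAA, 2 bases of any kind, GAAA), while BATF3 binds at AP-1 sites (TGANTCA). RefSeq windows (GRCm38.p6) of 250 bases before and 50 bases after the start were found for 9 of the 10 genes, Itgae being the one without, and both strands were searched for these motifs and for the TATA box TATAAA. The Irf4 window lies at chr13:30748983-30749282 on the plus strand, that of Irf8 (the upstream of its 2 windows) at chr8:120736108-120736407 on the plus strand, and that of Cd209a at chr8:3748935-3749234 on the minus strand. Capitals mark motif matches:
Irf4: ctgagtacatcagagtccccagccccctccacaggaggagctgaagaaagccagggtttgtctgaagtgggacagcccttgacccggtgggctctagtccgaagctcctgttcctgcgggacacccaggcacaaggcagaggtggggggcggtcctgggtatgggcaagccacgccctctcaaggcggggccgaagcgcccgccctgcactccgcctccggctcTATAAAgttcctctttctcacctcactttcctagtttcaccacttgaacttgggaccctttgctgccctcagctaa
Irf8: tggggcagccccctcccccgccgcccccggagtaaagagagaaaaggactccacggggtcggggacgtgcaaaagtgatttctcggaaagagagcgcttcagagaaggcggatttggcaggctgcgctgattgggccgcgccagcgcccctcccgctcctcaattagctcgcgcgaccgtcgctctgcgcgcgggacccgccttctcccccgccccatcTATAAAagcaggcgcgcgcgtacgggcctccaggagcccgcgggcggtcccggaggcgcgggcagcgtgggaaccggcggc
Cd209a: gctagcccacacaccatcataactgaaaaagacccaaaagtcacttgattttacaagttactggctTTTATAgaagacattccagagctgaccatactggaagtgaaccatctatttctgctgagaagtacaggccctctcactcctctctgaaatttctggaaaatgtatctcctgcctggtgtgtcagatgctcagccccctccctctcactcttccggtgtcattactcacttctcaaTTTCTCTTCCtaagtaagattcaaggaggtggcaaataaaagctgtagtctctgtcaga
The capitals in Irf4 and Irf8 are a TATA box on the gene's own strand that begins at position -26 and position -31 from the start site. In Cd209a they are a TATA match on the opposite strand at position -184 and, at position -9 on the opposite strand, the composite element GGAAGAGAAA. The motifs did not overlap each other in these windows. None of the windows found for these genes held the interferon response element. The window of Zbtb46 (chr2:181424339-181424638, minus strand) held an AP-1 match that reads on both strands. That window lies inside the gene as given in the authors' table, not at its upstream end at 181459426. Of 32851 promoter windows of the same length, 3.44% held the interferon response element, 2.72% the composite element, 7.81% the AP-1 site and 13.6% the TATA box. A match is a description of letters and not evidence of binding.

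The 10 genes did not move together between the genotypes. Itgae, Irf8, Irf4 and Flt3 were higher in each transgenic library than in either control, Xcr1 and Batf3 were lower in each, and the groups overlapped for Clec9a, Zbtb46, Cd209a and Siglech. The edgeR quasi-likelihood test, adjusted over 20872 genes, called 0 of them, and it called 0% of all genes (0 of 20872). It did not call Il33 either (log2 fold change 3.53, SE 0.37), so an uncalled gene is not evidence of no difference. DESeq2 called 0 of the 10 genes too, against 0.00479% of all genes (1 gene). At an unadjusted p under 0.05 edgeR marked 4 of the 10, all higher, against 0.896% of all genes tested marked higher (187 genes) and 0.393% marked lower. That count did not hold in every setting: it was 2 with DESeq2 (0.81% of all genes), and 0 without library D, without library F or with the Y-linked sum as a covariate, where 0.386%, 1.25% and 0.144% of all genes were marked higher. Without library E it was 1 higher (Irf4) and 2 lower (Clec9a and Zbtb46), against 3.63% and 7.87% of all genes. B and E both exceeded D and F for 4 of the 10 genes, against 11.9% of all genes tested. Both lay below D and F for 2 of the 10, against 12% of all genes tested. In bulk RNA a larger number of cells of a type and more RNA per cell cannot be told apart. The filter on low counts (0.120 CPM in at least 2 libraries) passed 8 of the 10, each of which was above it in all 4 libraries, while Cd209a and Siglech were above it in 1 library only. Among the 8 tested, 4 log2 fold changes were positive and 4 negative (median 0.21), and of all genes tested 49.6% were positive (median -0.00).

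**Figure D1:**
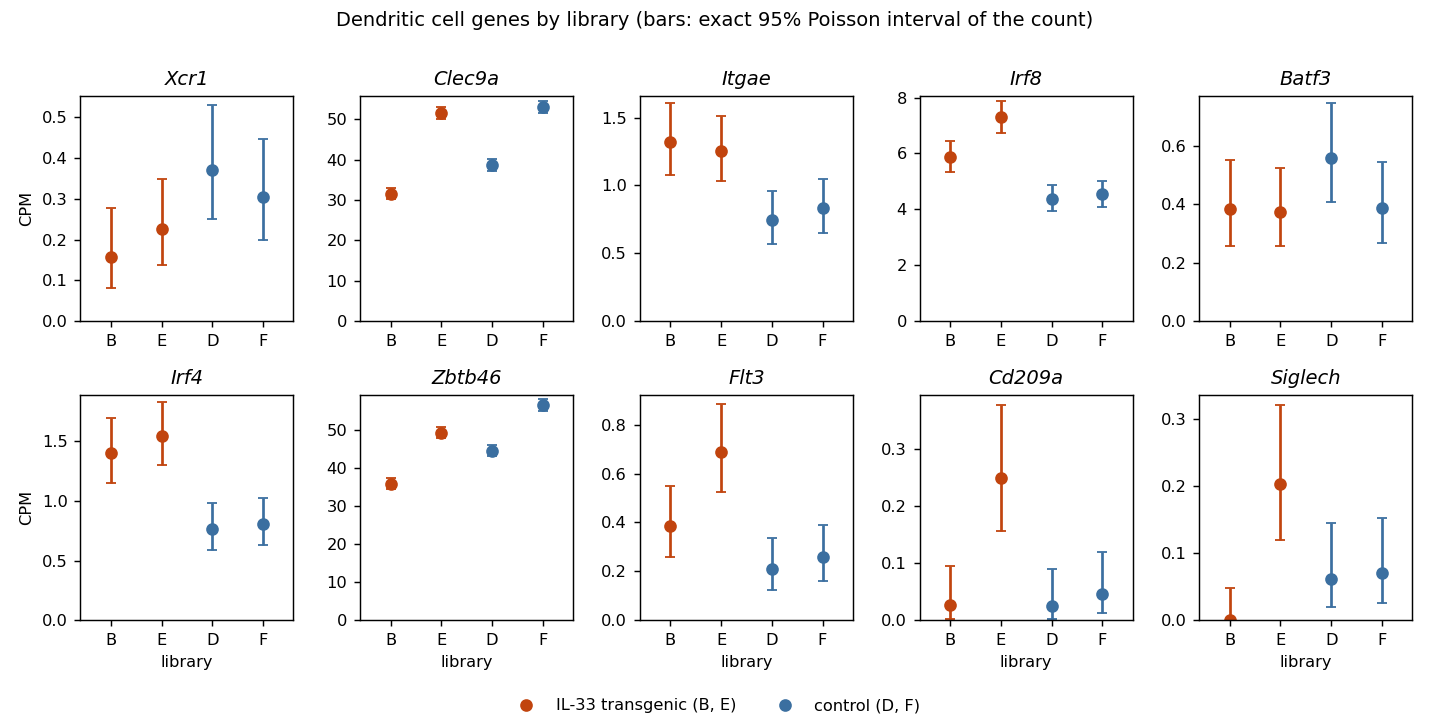
Level of each of the 10 genes in CPM (y axis, from 0, a scale per gene) in the transgenic libraries B and E and the control libraries D and F (x axis), with bars for the exact 95% Poisson interval of each count, which covers counting error only. Itgae, Irf8, Irf4 and Flt3 are higher in both transgenic libraries, and Cd209a and Siglech are high in library E alone.

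Among the cDC1 surface genes, Xcr1 and Itgae went opposite ways. Xcr1 (chromosome 9, 123852315 to 123862029, GRCm38 as in the authors' table, the source of all gene positions given unless another is named) encodes the receptor for the chemokine XCL1, through which cDC1 find T cells and natural killer cells. It had 12 and 20 counts in the transgenic libraries B and E (0.159 and 0.226 CPM), against 30 and 26 counts in the control libraries D and F (0.372 and 0.305 CPM). Both transgenic values lay below both controls, although the exact 95% Poisson interval of the count in E (12.2 to 30.9) held the count of 26 in F. The means were 0.192 ± 0.047 CPM for the transgenic and 0.339 ± 0.047 CPM for the control group (SD, n = 2 each), a log2 fold change of -0.80 (SE 0.42, edgeR adjusted p = 1) that ran from -1.09 to -0.35 over the alternative settings. Itgae (chromosome 11, 73090583 to 73147446) encodes integrin alpha E, known as CD103, which binds E-cadherin on epithelial cells and is carried by cDC1 and also by many T cells of mucosal tissue. Its level was 1.32 and 1.25 CPM in the transgenic libraries B and E (100 and 111 counts), against 0.744 and 0.833 CPM in the control libraries D and F (60 and 71 counts). The transgenic libraries lay close together and above both controls, with the widest ratio, 1.78, between B and D. The log2 fold change was 0.71 (SE 0.26, edgeR adjusted p = 1).

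Clec9a encodes a C-type lectin-like receptor by which cDC1 recognise dead cells. It stood at 31.5 and 51.5 CPM in the transgenic libraries B and E (2384 and 4561 counts), against 38.6 and 53.0 CPM in the control libraries D and F (3114 and 4519 counts). The groups overlapped, with B lowest and F highest (log2 fold change -0.14, SE 0.28, edgeR adjusted p = 1), and the sign turned without library B (0.17) or without library F (0.10). Clec9a has close neighbours. In GENCODE M21 Clec9a (chromosome 6, plus strand, ending at 129424763) ends 8 bases from the end of Clec1a (129424772 to 129452000), which lies on the minus strand and encodes a lectin-like receptor known from endothelial and myeloid cells. The exons of Clec9a also share 184 of 3293 bases with those of Clec1b on the plus strand, which encodes the platelet receptor CLEC-2. The strand setting of the counting is not given in the sources used here, and in unstranded counts reads of opposite strands cannot be told apart.

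The counts of Clec9a kept a nearly fixed proportion to those of Clec1a, a gene set beside it after its values were seen. Clec1a had 13781 and 26205 counts in the transgenic libraries B and E, against 17119 and 25627 in the control libraries D and F. Clec9a amounted to 17.3% and 17.4% of these in B and E, and to 18.2% and 17.6% in D and F. The 95% intervals of the 4 percentages, from exact binomial limits and for counting error only, all overlapped, from 16.6% to 18.9% in their full span. The highest of the ratios was 1.05 times the lowest, while Clec9a itself varied 1.68-fold over the libraries in CPM. Of the 20871 other genes tested, 20 (0.0958%) kept as even a ratio to Clec9a, Clec1a among them. Against Xcr1, the other gene known mainly from cDC1, the ratio of counts ran from 104 in D to 228 in E. Xcr1 had only 12 to 30 counts a library (exact 95% Poisson interval 6.2 to 21 in B). Counting error alone can thus widen that ratio, and the 2 spreads are not alike in precision. Whether Clec9a counts include reads of Clec1a was not tested.

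**Figure D2:**
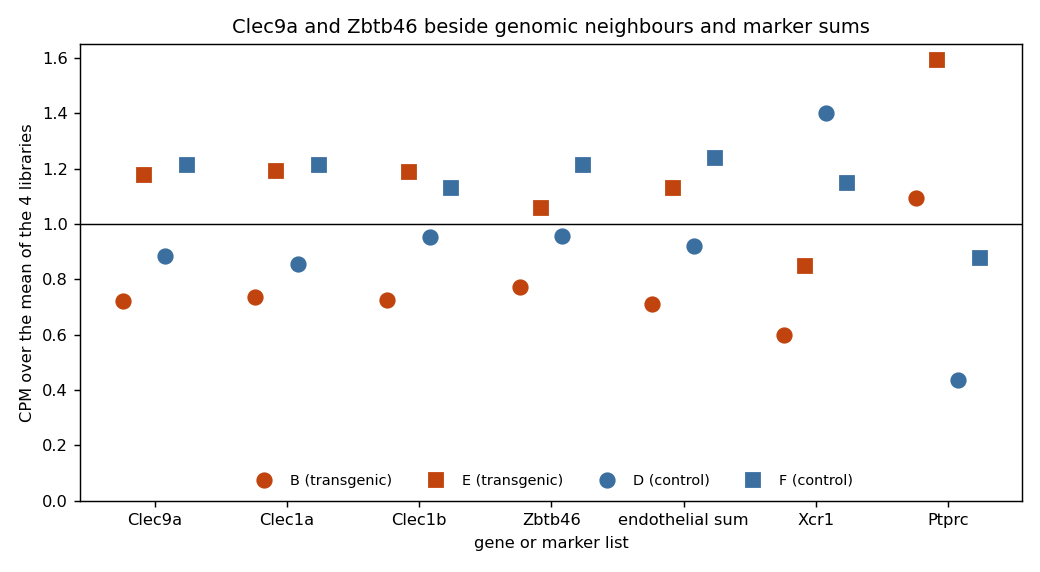
CPM of each gene or summed marker list in the transgenic libraries B and E and the control libraries D and F, divided by its mean over the 4 libraries (y axis, from 0). Clec9a, its neighbours Clec1a and Clec1b, Zbtb46, the endothelial sum and Xcr1 are all lowest in B. Xcr1 is highest in D, and Ptprc is lowest in D and highest in E.

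Zbtb46 (chromosome 2, 181387762 to 181459426) encodes a zinc finger factor of conventional dendritic cells and their precursors that is also known from endothelial cells. It stood at 35.8 and 49.1 CPM in the transgenic libraries B and E (2708 and 4355 counts), against 44.5 and 56.3 CPM in the control libraries D and F (3587 and 4800 counts). The groups overlapped, since E lay above D (log2 fold change -0.25, SE 0.20, edgeR adjusted p = 1). The order of the libraries from low to high, B, D, E and F, was that of Clec9a and of the summed endothelial markers. The 15 endothelial markers summed to 6351 and 10100 CPM in transgenic libraries, against 8229 and 11058 CPM in controls. Zbtb46 was 0.564% and 0.486% of that sum in transgenic and 0.541% and 0.509% in control libraries, and Clec9a was 0.497% and 0.509% against 0.469% and 0.480%. The share of all genes tested with such an order, or with so even a ratio to the endothelial sum, is not given here. The part of endothelial RNA in these 2 genes was not tested.

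Of the interferon regulatory factor genes and their partner, Irf4 and Irf8 stood higher and Batf3 did not. Irf4 (chromosome 13, 30749226 to 30766927), whose product is needed for cDC2 function and also acts in plasma cells, T cells and activated macrophages, stood at 1.40 and 1.55 CPM in the transgenic libraries B and E (106 and 137 counts). In the control libraries D and F it stood at 0.769 and 0.810 CPM (62 and 69 counts). The groups lay well apart relative to their spread, at 1.47 ± 0.10 CPM for the transgenic and 0.789 ± 0.029 CPM for the control group (SD, n = 2 each). The log2 fold change was 0.90 (SE 0.25, edgeR adjusted p = 1), and over 15 alternative settings it ran from 0.82 to 0.97. This was the narrowest range among the 4 genes that stood higher. Irf8 (chromosome 8, 120736358 to 120756694), whose product sets the fate of cDC1 and is also made in B cells and monocytes, stood at 5.88 and 7.29 CPM in the transgenic libraries B and E (444 and 646 counts). In the control libraries D and F it stood at 4.38 and 4.54 CPM (353 and 387 counts). Every transgenic library was above every control, by 1.29-fold (B over F) to 1.66-fold (E over D), and the log2 fold change was 0.56 (SE 0.19, edgeR adjusted p = 1). Batf3 (chromosome 1, 191097847 to 191108945) encodes the AP-1 family partner with which IRF8 maintains cDC1. It had 29 and 33 counts in transgenic libraries (0.384 and 0.372 CPM), against 45 and 33 counts in control libraries (0.558 and 0.387 CPM). The groups did not overlap in CPM, but the ratio of B to F was 0.991, and library D set the control mean apart (log2 fold change -0.32, SE 0.37, edgeR adjusted p = 1). Without D the log2 fold change of Batf3 was -0.03, and with the Y-linked sum as a covariate it was 0.37.

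Flt3 (chromosome 5, 147330741 to 147400489) encodes the receptor tyrosine kinase for FLT3 ligand, on which dendritic cells depend, and it is also carried by blood progenitors. It had 29 and 61 counts in the transgenic libraries B and E (0.384 and 0.688 CPM), against 17 and 22 counts in the control libraries D and F (0.211 and 0.258 CPM). Both transgenic libraries were above both controls, with the exact Poisson interval of B (19.4 to 41.6 counts) reaching below the count of F. The means were 0.536 ± 0.215 CPM for the transgenic and 0.235 ± 0.033 CPM for the control group (SD, n = 2 each), the largest fitted difference of the 8 genes tested (log2 fold change 1.19, SE 0.45, edgeR adjusted p = 1). The size depended on the library left out: the log2 fold change was 0.70 without E and 1.55 without B. Flt3l, the gene of the ligand, stood at 4.23 and 5.12 CPM in transgenic libraries, against 6.35 and 5.54 CPM in controls (log2 fold change -0.35, SE 0.19, edgeR adjusted p = 1), so its groups did not overlap and ran the other way.

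Cd209a and Siglech exceeded 6 counts in library E alone. Cd209a (chromosome 8, 3743395 to 3748984), which encodes a relative of the lectin DC-SIGN, had 2 and 22 counts in the transgenic libraries B and E, against 2 and 4 counts in the control libraries D and F. Siglech (chromosome 7, 55768178 to 55778925), which encodes a sialic acid-binding lectin of pDC, had 0 and 18 counts in B and E, against 5 and 6 counts in D and F. The count of 0 in B allows up to 3 counts (0.0397 CPM) as a limit on the upper side alone, while its exact 95% Poisson interval, which covers both sides, reaches 3.69 counts (0.0488 CPM). The 2 transgenic libraries thus lay on either side of both controls for Siglech, and library B fell within the counting intervals of the controls for Cd209a. With no filter on low counts, edgeR gave log2 fold changes of 1.91 (SE 1.15) for Cd209a and 0.64 (SE 1.29) for Siglech, with an adjusted p of 1 over 29887 genes for each. A difference between the genotypes was not detectable for them at this depth and with 2 libraries a group.

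**Figure D3:**
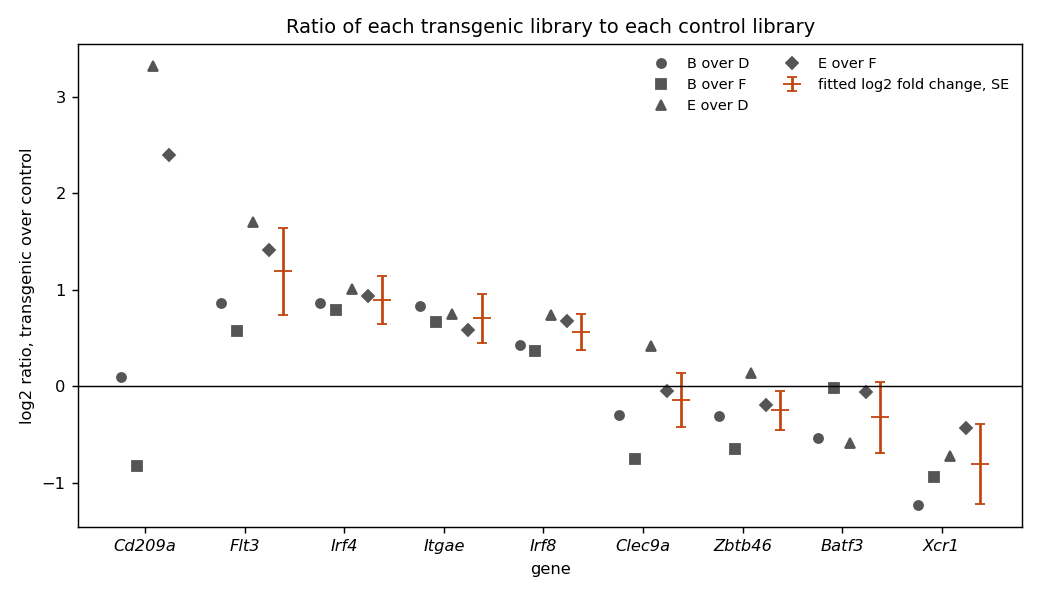
Log2 ratio of each transgenic library to each control library (grey symbols, 4 per gene) and the fitted log2 fold change with its SE (orange, for the 8 genes tested) on the y axis. Of the 10 genes, Siglech is left out for its count of 0 in B. The 4 ratios of Flt3, Irf4, Itgae and Irf8 all lie above 0 and those of Batf3 and Xcr1 below, while Cd209a, Clec9a and Zbtb46 straddle 0.

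Leukocyte markers at large also had higher values in the transgenic libraries, without passing the adjusted test. The log2 fold changes of all 10 leukocyte markers tested were positive (median 0.83), against 49.6% of all genes tested. For 6 of the 10 both transgenic libraries lay above both controls, against 11.9% of all genes tested. The 10 markers summed to 377 and 442 CPM in transgenic libraries, against 306 and 356 CPM in controls. Lcp1, an actin-bundling gene, made up 72.2% to 86.4% of that sum. Without Lcp1 the sum was 81.7 and 123 CPM in transgenic libraries, against 41.6 and 75.0 CPM in controls. The levels are also given relative to Ptprc, a measure added after the data were seen. Ptprc was itself higher in both transgenic libraries (log2 fold change 1.03, SE 0.38), so on this scale a gene with a smaller increase tends to a lower ratio in them. Irf4 was 6.80% and 5.15% of the Ptprc level in B and E, against 9.37% and 4.90% in D and F, and Irf8 was 28.5% and 24.3% against 53.3% and 27.5%. Itgae was 6.42% and 4.17% of Ptprc in transgenic and 9.06% and 5.04% in control libraries, and Flt3 was 1.86% and 2.29% against 2.57% and 1.56%. On that scale the groups overlapped for Irf4, Irf8, Itgae and Flt3, whereas Xcr1 at 0.770% and 0.751% of Ptprc in transgenic libraries lay below the 4.53% and 1.85% of control libraries. In all, 0 of the 10 genes were higher without overlap relative to Ptprc, against 0.187% of all genes tested, and 4 were lower, against 79% of all genes tested. Few genes of any kind stayed higher on this scale, so the loss of separation is not a result about the 4 genes. Their groups overlapped where most genes tested were lower. Relative to the sum of all leukocyte markers, mostly Lcp1, 4 were higher, against 1.97% of all genes tested, and 4 lower, against 49%.

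Other cells that can carry these transcripts were also marked. T cell markers had 18 of 20 log2 fold changes above 0 (median 0.51), with a sum of 73.5 and 77.1 CPM in transgenic libraries, against 63.9 and 71.5 CPM in controls, and the defining gene Cd3e stood at 0.556 and 0.801 against 0.360 and 0.552 CPM. B and plasma cell markers had 8 of 11 above 0 (median 0.38, sum 31.8 and 38.7 against 25.9 and 30.6 CPM), with Cd79a at 0.648 and 1.09 against 0.509 and 0.951 CPM. In that list Pax5 was at 0 in B and D and Jchain at 0 in D. Monocyte and interstitial macrophage markers had 11 of 15 above 0 (median 0.41, sum 924 and 902 against 955 and 831 CPM), with Ccr2 at 6.56 and 5.40 against 2.89 and 3.19 CPM. Most of that sum was Lyz2, at 746 and 714 against 801 and 670 CPM. Alveolar macrophage markers had 12 of 14 above 0 (median 0.80, sum 250 and 458 against 247 and 441 CPM), with Marco at 1.95 and 6.18 against 0.844 and 3.39 CPM. Much of that sum came from the 2 genes below 0. These were Car4 (104 and 185 against 147 and 226 CPM) and Abcg1 (47.1 and 82.3 against 53.2 and 82.6 CPM). All 10 natural killer cell markers were above 0 (median 0.91, sum 7.25 and 5.25 against 3.91 and 3.32 CPM), with Ncr1 at 0.741 and 0.237 against 0.422 and 0.0469 CPM. Endothelial markers had 0 of 15 above 0 (median -0.23), epithelial markers 13 of 15 (median 0.15, sum 63899 and 40797 against 53292 and 37806 CPM). Immediate-early genes, which mark stress of dissociation among other stimuli, had 1 of 12 above 0 (median -0.14, sum 10746 and 8833 against 10230 and 10887 CPM). Medians of some lists turned sign in other settings. With the Y-linked sum as a covariate they were -0.00072 for leukocyte, -0.35 for B and plasma cell and -0.92 for alveolar macrophage markers, and without library E they were -0.090 for B and plasma cell and -0.022 for alveolar macrophage markers. Without library B the endothelial median was 0.019 and the epithelial one -0.16, and without F the epithelial one was -0.041. The part of these cells in the values of Itgae, Irf4, Irf8 and Flt3 was not tested.

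Further genes of the same subsets were read from lists beside the 10 genes, and 0 of their members passed the adjusted test in either direction. Over all genes tested, 11.9% were higher and 12% lower without overlap, the shares to set beside the counts of each list. Many of these genes are also made by lung epithelium, endothelium or macrophages. Of 15 other cDC1 genes 12 were tested, 10 of them above 0 and 2 below (median 0.10), 2 of them higher without overlap. Naaa, the gene of a lysosomal amidase, stood at 13.1 and 14.9 CPM in transgenic libraries, against 8.82 and 11.2 CPM in controls (log2 fold change 0.48, SE 0.18). Wdfy4, needed for cross-presentation, stood at 4.22 and 10.3 against 1.70 and 6.44 CPM, so its groups overlapped, as did those of Id2 (175 and 145 against 144 and 147 CPM), a repressor of basic helix-loop-helix factors. Of 13 other cDC2 genes 12 were tested, 9 above 0 and 3 below (median 0.29), 3 higher and 1 lower without overlap. Itgam, the CD11b gene that is also strong in neutrophils and monocytes, stood at 4.49 and 6.57 CPM in transgenic libraries, against 1.91 and 3.70 CPM in controls (log2 fold change 0.98, SE 0.39). Cd300a, an inhibitory receptor gene, stood at 2.20 and 3.10 against 1.33 and 1.71 CPM (0.80, SE 0.29). Klf4, a transcription factor gene also expressed in epithelium and endothelium, was the one lower, at 235 and 278 against 331 and 337 CPM (-0.38, SE 0.13).

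Of 14 other pDC genes 12 were tested, 7 above 0 and 5 below (median 0.33, and -0.05 with a stricter filter of 1 CPM). Without overlap 3 were higher and 1 lower, against 11.9% and 12% of all genes tested. None of the 3 shown separated the groups. The nucleic acid sensor gene Tlr7 stood at 1.30 and 3.44 CPM in transgenic libraries, against 0.757 and 1.53 CPM in controls, the tetherin gene Bst2 at 19.8 and 23.9 against 23.8 and 23.1 CPM, and the transcription factor gene Runx2 at 1.38 and 4.16 against 1.56 and 2.63 CPM. Library E was the highest for Tlr7 and Runx2, as it was for Siglech. It was also the highest for Ptprc, Itgax and Marco, so this was not particular to pDC genes. Irf7, another gene of the pDC list, was highest in F and lowest in E. Of 10 other genes shared by dendritic cell subsets 9 were tested, 7 above 0 and 2 below (median 0.23). Of the 9 tested, 2 were higher without overlap, against 11.9% of all genes tested. Itgax, the CD11c gene shared with alveolar macrophages, had 494 and 1287 counts in transgenic libraries, against 121 and 607 counts in controls, and F lay above B in CPM (log2 fold change 1.29, SE 0.78). The class II transactivator gene Ciita stood at 28.3 and 22.4 against 23.5 and 19.6 CPM, and H2-DMb2, of class II peptide loading, at 16.2 and 12.1 against 13.6 and 9.54 CPM.

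Genes of mature, migrating dendritic cells were mixed. Of 16, 13 were tested, 9 above 0 and 4 below (median 0.14). Without overlap 3 were higher and 3 lower, against 11.9% and 12% of all genes tested. Ccr7, the chemokine receptor that guides dendritic cells and T cells to lymph nodes, had 225 and 177 counts in transgenic libraries, against 136 and 93 counts in controls (log2 fold change 0.84, SE 0.34). Socs2, a feedback inhibitor of cytokine signalling, stood at 93.7 and 90.9 against 77.7 and 85.3 CPM (0.18, SE 0.10). Fscn1, an actin-bundling gene of mature dendritic cells, stood at 84.7 and 110 against 123 and 122 CPM (-0.33, SE 0.15). Of the 14 growth factors and receptors, all tested, 8 were above 0 and 6 below (median 0.10). Again 3 were higher and 3 lower without overlap, beside the same shares of all genes. Csf2, the gene of GM-CSF, stood at 6.30 and 5.73 CPM in transgenic libraries, against 4.99 and 4.19 CPM in controls (0.39, SE 0.19). Csf2ra, the gene of its receptor chain, stood at 7.65 and 9.07 against 6.28 and 6.10 CPM (0.43, SE 0.17). Every library of one group lay above every library of the other for these 5 genes, and the edgeR adjusted p was 1 for each.

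The medians of most of these lists were not stable in sign. With the Y-linked sum as a covariate they were -0.12 for the other cDC1, -0.13 for the other cDC2, -0.0053 for the other pDC, -0.076 for the mature and -0.11 for the growth factor genes. Without library E they were -0.016 for the other pDC and -0.12 for the growth factor genes, without D -0.074 for the growth factor genes, and without B -0.035 for the mature genes. The median of the other genes shared by subsets was above 0 in all 15 settings. The 4 named genes that stood higher, Irf4, Irf8, Itgae and Flt3, had a log2 fold change above 0 in every setting that tested them. The lowest was 0.39, for Irf8. They were set apart because both transgenic libraries lay above both controls, so leaving out 1 library could not readily turn their sign. With the Y-linked sum as a covariate their SE ran from 0.56 (Irf8) to 1.22 (Flt3).

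**Figure D4:**
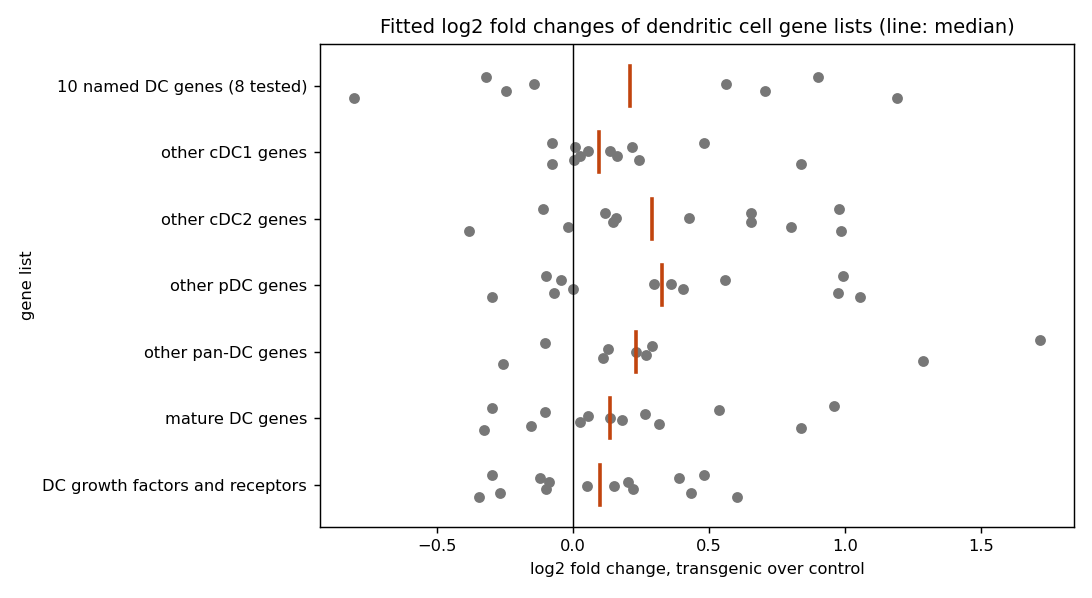
Fitted log2 fold change, transgenic over control (x axis), of each tested gene (grey points) for the 8 tested of the 10 dendritic cell genes and for 6 further lists (rows), with the median of each list as an orange line. The medians lie between 0.10 and 0.33, and each list has genes on both sides of 0.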

How the data were processed

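The labels' protocols name a Qiagen RNeasy extraction and polyadenylated RNA. The submitters' processing notes name TopHat2 (2), Bowtie (1), featureCounts (1) and the builds mm10 and GRCm38 (names of a single assembly). The annotation release and strand setting were not given in the sources used here. The authors deposited raw whole-number counts per gene together with the RPKM of each gene and library. RPKM was used only to order genes by level. The 10 genes were matched by gene name. The list genes were matched by name, or by identifier through the GENCODE M21 symbols where the name differed.

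The low-count filter was filterByExpr with a minimum count of 10 and a minimum total of 15, and it left 20872 of 29887 with a count, and scaled by TMM. CPM values use the scaled library sizes. Transgenic and control libraries were compared without covariate by the quasi-likelihood test of edgeR 4.0.16 in its legacy setting (R 4.3.3), with Benjamini-Hochberg adjustment at 0.05 over all genes tested. An exact permutation test of 2 against 2 libraries could not go below p = 0.333. The SE of a log2 fold change was its size over the root of its F statistic. No overlap means that both libraries of a group lay above both of the other.

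The genes, lists and alternatives were chosen with earlier results of these data known. Named are the 10 genes, Il33, 9 defining genes of cell types and, of each dendritic cell list, the 3 genes with the smallest p that averaged at least 1 CPM. Clec1a, Clec1b, Haspin, Gm20388, Lcp1, Lyz2, Car4, Abcg1, Irf7 and the genes listed at 0 were named after their values were seen. Alternatives used DESeq2 1.42.0 and limma 3.58.1, other scalings and filters, covariates, and each library left out.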

Additional observations from a re-analysis of the deposited data

How the results depend on the processing

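Under 15 alternatives no dendritic cell gene was called, and 114 of 117 log2 fold changes kept their direction. The alternatives reuse the same libraries, so a kept direction is no independent support. The sign of Clec9a turned without library B (0.17) or F (0.10), in a range of -0.55 to 0.17 with 1 library left out, and that of Batf3 with the Y-linked sum as a covariate (0.37). The number of genes called was 1 with DESeq2, which was not a dendritic cell gene, and 0 to 15 with 1 library left out (2 without B, 0 without D, 15 without E, 5 without F). The median of the tested genes, 0.21, was 0.60 with no filter on low counts (10 genes tested), 0.55 with a stricter filter (5 tested), 0.42 with the Y-linked sum as a covariate, and 0.040 (without E) to 0.69 with 1 library left out. It rests on 4 genes on each side of 0 and describes no common shift. Of the 5 genes that passed the stricter filter, 3 were higher without overlap and 0 lower (10.2% and 11.8% of all genes). Xcr1 and Batf3 did not pass it. With 1 library left out, 4 to 6 genes were higher without overlap (27.3% to 35.7% of all genes) and 2 to 4 lower (27.1% to 38.6%), 4 without D and without E. Relative to Ptprc 0 were higher and 4 lower (0.187% and 79% of all genes), and relative to the leukocyte sum 4 were higher and 4 lower (1.97% and 49%), both measures added after the data were seen. No paired analysis was possible because the labels give no replicate numbers. With a term that split B and D from E and F, seen in earlier results and not in the labels, 0 genes were called. With 2 libraries per group and between 12 and 61 counts for Xcr1, Batf3 and Flt3, counting error alone is a sizeable part of their spread.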

Other observations

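Some genes of the dendritic cell lists that fall outside the rule for named genes had uneven levels, and they were picked after their values were seen. Btla, an inhibitory receptor gene of lymphocytes and of some dendritic cells, stood at 0.648 and 0.463 CPM in the transgenic libraries B and E, against 0.0744 and 0.258 CPM in the control libraries D and F (log2 fold change 1.72, SE 0.63). Tlr9, the sensor of unmethylated DNA in pDC and B cells, stood at 0.238 and 0.361 CPM in transgenic libraries, against 0.124 and 0.176 CPM in controls (0.99, SE 0.47). The edgeR test did not call either gene. Ccl22, a chemokine gene of mature dendritic cells and macrophages, had 0 and 6 counts in transgenic libraries, against 36 counts in D and 4 in F, so a single control library held most of its reads.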
